A study of Mus musculus with 9 samples.

Results

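The 10 chemokine genes *Ccl2*, *Ccl3*, *Ccl4*, *Ccl5*, *Ccl6*, *Ccl7*, *Ccl9*, *Ccl12*, *Cxcl10* and *Cxcl16* were followed in microglia sorted from the brains of mice with a lysosomal storage disease. They were chosen by name as CC and CXC chemokines that microglia make, and are 10 of the 24421 genes in the count table. RNA was sequenced from 3 libraries in each of 3 groups. The MLIV group models mucolipidosis type IV and is *Mcoln1*-/-, without the lysosomal channel mucolipin-1. The FD group models Fabry disease and is *Gla* y/-, without the lysosomal enzyme alpha-galactosidase A. The WT group was littermate controls by its labels (titled Control, where FD and MLIV are Fabry and ML4). The study's methods describe intercrosses that give control littermates for *Mcoln1* but a *Gla* line kept as homozygotes, so FD and WT mice may come from separate colonies, and colony and genotype cannot be told apart there. All mice were on a C57BL6 background (C57CL6J in the labels), and both alleles are constitutive, so every cell type of the brain and body lacks the gene. The series title gives an age of 4 months, whereas the study's methods state a younger age, and the age of these libraries is therefore uncertain. Cells were live CX3CR1+ CD45+ CD11b+ events, a gate that other myeloid cells can also enter, and the labels do not say how many mice stand behind a library.

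Chemokines are small secreted proteins that bind G protein-coupled receptors on leukocytes and set the direction in which those cells migrate. Microglia, the resident macrophages of the brain, make CC chemokines that call monocytes and T cells, and CXC chemokines that include products of interferon signalling. *Cxcl16* differs from the others in that it is made as a transmembrane protein and is shed by proteases.

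Depth was 22772260 to 37801159 counts per library. *Mcoln1* had 0, 0 and 18 counts in the MLIV libraries and 1442, 1227 and 892 counts in the FD libraries. The libraries labelled WT held 1082, 1517 and 2 *Mcoln1* counts. The library labelled WT replicate 3 therefore went against its label, and the tests were run with all 9 libraries as labelled and with 8 libraries, without it. *Gla* had 11.7, 17.4 and 14.0 CPM (counts scaled to a common library size) in MLIV, 4.82, 4.83 and 4.56 CPM in FD and 4.59, 8.17 and 10.8 CPM in WT. The highest FD value lay above the lowest WT value, so *Gla* counts did not separate FD from WT. FD replicate 3 also stood apart, with 12032 genes counted at least once against 15526 to 22932 in the other libraries. The highest of these was WT replicate 1, which had the lowest depth (22772260 counts). The 13 microglial markers examined, among them *P2ry12* and *Tmem119*, summed to 25278 to 31147 CPM in MLIV, 24857 to 27485 CPM in FD and 24981 to 28802 CPM in WT. Nothing in the labels says that the libraries of a group came from separate mice, so the p-values measure only how far these samples varied, which may be technical. In sorted bulk RNA, fewer cells that express a gene and less of its RNA per cell cannot be told apart.

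On mm10, 9 of the 10 genes lie on chromosome 11. *Ccl2* (82035577 to 82037452), *Ccl7* (82045712 to 82047523) and *Ccl12* (82101845 to 82103399) lie on the plus strand, with *Ccl11* between *Ccl7* and *Ccl12*. A second cluster holds *Ccl5* (83525779 to 83530518), *Ccl9* (83572917 to 83578636), *Ccl6* (83587886 to 83593087) and *Ccl3* (83647843 to 83649378) on the minus strand and *Ccl4* (83662584 to 83664683) on the plus strand. *Cxcl16* lies apart from both (70454234 to 70459984, minus strand), and *Cxcl10* is on chromosome 5 (92346639 to 92348889, minus strand). The counts are of reads over exons on either strand. No exon of 9 of the genes overlaps an exon of another gene, whereas *Cxcl16* shares 363 of its 2448 exon bases with *Zmynd15* on the opposite strand. *Zmynd15* had 215, 351 and 241 counts in MLIV, 352, 203 and 161 counts in FD and 223, 220 and 256 counts in WT, against 1722 to 6631 counts of *Cxcl16*. Reads from the shared bases cannot be assigned to either gene.

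Promoter sequence was given for 5 of the 10 genes (*Cxcl10*, *Ccl12*, *Ccl9*, *Ccl6* and *Ccl3*; RefSeq, GRCm38.p6, which is mm10). The bases before the transcription start are shown 5′ to 3′ on the gene's strand. They are shown because NF-kappaB, AP-1 and interferon-activated factors are the textbook regulators of this family, and because the ratio of *Ccl6* to *Ccl9* counts set FD apart from the other libraries (given below). Capitals mark a match on either strand to the kappaB letters (GGG and TTCC with any 3 bases between them), the AP-1 letters TGANTCA or the interferon-stimulated response element (ISRE) core (GAAA and GAAA with any 2 bases between them). No match overlapped another. *Cxcl10* is given for 250 bases (chr5:92348890-92349139), and the others for the last 100 bases before the start: *Ccl9* (chr11:83578637-83578736), *Ccl6* (chr11:83593088-83593187), *Ccl12* (chr11:82101745-82101844) and *Ccl3* (chr11:83649379-83649478).
Cxcl10: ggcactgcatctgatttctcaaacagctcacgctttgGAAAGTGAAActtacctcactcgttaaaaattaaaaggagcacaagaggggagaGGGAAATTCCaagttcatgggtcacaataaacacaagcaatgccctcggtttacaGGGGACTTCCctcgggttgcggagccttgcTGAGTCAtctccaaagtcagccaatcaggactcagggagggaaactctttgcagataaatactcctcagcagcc
Ccl9: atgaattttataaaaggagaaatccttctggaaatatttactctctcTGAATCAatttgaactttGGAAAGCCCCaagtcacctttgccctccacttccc
Ccl6: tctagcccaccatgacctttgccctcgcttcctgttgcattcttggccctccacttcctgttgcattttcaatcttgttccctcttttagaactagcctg
Ccl12: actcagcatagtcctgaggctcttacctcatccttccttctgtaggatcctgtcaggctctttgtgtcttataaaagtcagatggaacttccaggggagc
Ccl3: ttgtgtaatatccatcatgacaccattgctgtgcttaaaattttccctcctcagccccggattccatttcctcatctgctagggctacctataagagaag

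The *Cxcl10* promoter held 2 kappaB matches, 159 to 150 and 104 to 95 bases before the start, with the ISRE core at 213 to 204 and the AP-1 match at 74 to 68 bases before it. *Ccl9* held a kappaB match at 35 to 26 and an AP-1 match at 53 to 47 bases before the start. None of the 3 motifs was found in the 250 bases before the start of *Ccl12*, *Ccl6* or *Ccl3*. Over the same 250 bases, 4.65% of 32851 promoters held the kappaB letters, 2.98% the ISRE core and 6.75% the AP-1 letters. A match describes letters and is not a measured binding site.

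*Ccl12*, *Ccl2* and *Ccl7* encode ligands of CCR2, the receptor that brings inflammatory monocytes out of the blood. *Ccl12* had 97.8, 112 and 91.3 CPM in MLIV and 91.0, 47.7 and 40.8 CPM in FD, against 29.4, 26.6 and 104 CPM in WT. The value of 104 CPM belongs to the library labelled WT replicate 3, which lay within the MLIV range, and the other 2 WT libraries lay below all MLIV and FD libraries. With 9 libraries the log2 fold change of MLIV against WT was 0.91 ± 0.53 (SE; edgeR adjusted p = 0.999), and with 8 libraries *Ccl12* rose by 1.83 ± 0.31 (adjusted p = 0.0135). That call was lost when WT replicate 1, WT replicate 2, MLIV replicate 1 or MLIV replicate 2 was also left out (adjusted p = 0.231, 0.178, 0.0573 and 0.0544). FD against WT gave 0.16 ± 0.53 with 9 libraries (adjusted p = 0.949) and 1.09 ± 0.31 with 8 (adjusted p = 0.543).

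*Ccl2*, the monocyte chemoattractant CCL2, had 21.7, 25.8 and 17.96 CPM in MLIV and 25.2, 23.4 and 4.96 CPM in FD, against 9.60, 10.8 and 17.4 CPM in WT. All MLIV libraries lay above all WT libraries, by a margin of less than 1 CPM over the library labelled WT replicate 3, and FD replicate 3 was the lowest of the 9. The log2 fold change of MLIV against WT was 0.79 ± 0.49 with 9 libraries (adjusted p = 0.999) and 1.09 ± 0.57 with 8 (adjusted p = 0.577). With 8 libraries, only the 2 groups compared and leaving out FD replicate 3 each called *Ccl2* higher in MLIV. *Ccl7*, a further CCR2 ligand, had the lowest mean CPM of the 10 in MLIV and WT. It had 2.33, 1.03 and 4.09 CPM in MLIV, 6.35, 1.64 and 2.88 CPM in FD and 2.12, 0.727 and 2.95 CPM in WT, and these ranges overlapped in every comparison. Its smallest adjusted p over the 3 comparisons and both fits was 0.793.

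*Ccl3*, *Ccl4* and *Ccl5* encode inflammatory CC chemokines, and the products of *Ccl3* and *Ccl5* bind CCR1. *Ccl3* had 61.7, 105 and 75.9 CPM in MLIV and 36.8, 49.9 and 36.8 CPM in FD, against 23.8, 25.7 and 86.7 CPM in WT. The 3 groups formed 3 separate levels once the library labelled WT replicate 3, at the MLIV level, was set aside. *Ccl3* rose in MLIV against WT with 8 libraries (1.70 ± 0.24, adjusted p = 0.00124), and the log2 fold change with 9 libraries was 0.83 ± 0.46 (adjusted p = 0.999). The call was lost when WT replicate 1 was also left out (1.64 ± 0.34, adjusted p = 0.0560). Against FD, *Ccl3* was higher in MLIV with 8 libraries (0.97 ± 0.21, adjusted p = 0.0122), and with 9 this was 0.97 ± 0.46 (adjusted p = 0.288). FD against WT gave 0.73 ± 0.23 with 8 libraries (adjusted p = 0.702) and -0.14 ± 0.46 with 9 (adjusted p = 0.949).

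*Ccl4* had 34.0, 51.1 and 35.4 CPM in MLIV and 17.6, 31.5 and 3.89 CPM in FD, against 14.3, 14.2 and 39.4 CPM in WT. It stood at about the same ratio to *Ccl3* in 8 libraries, with 1.58 to 2.20 *Ccl3* counts per *Ccl4* count, and FD replicate 3 was the exception at 9.47. MLIV against WT gave 1.49 ± 0.77 with 8 libraries (adjusted p = 0.585) and 0.83 ± 0.67 with 9 (adjusted p = 0.999). With 8 libraries, no filter on low counts, only the 2 groups compared and leaving out FD replicate 3 each called *Ccl4* higher in MLIV.

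*Ccl5* encodes CCL5 (RANTES), a chemokine for T cells and monocytes, and its range over the libraries was wide. It had 29.4, 33.7 and 45.2 CPM in MLIV, from 1024 to 1446 counts. In FD it had 0.622, 1.25 and 0 CPM, from 20, 38 and 0 counts. In WT it had 1.97, 1.86 and 31.4 CPM, the last being the library labelled WT replicate 3. No MLIV value overlapped an FD value, and the MLIV values were over 10 times those of WT replicates 1 and 2. A count of 0 in FD replicate 3 allows up to 3 counts, or 0.101 CPM, for counting error only and if each count is independent. Mates were counted singly, so this limit may be too low. The log2 fold changes against FD depend in part on how an absent count is treated. *Ccl5* was higher in MLIV than in FD by 5.83 ± 0.96 with 8 libraries (adjusted p = 0.0165) and 5.84 ± 1.49 with 9 (adjusted p = 0.0868). With 9 libraries DESeq2 called this difference (DESeq2 adjusted p = 0.00283). MLIV against WT gave 4.23 ± 1.04 with 8 libraries (adjusted p = 0.141) and 1.61 ± 1.20 with 9 (adjusted p = 0.999). The non-call with 8 libraries depended on the fit. DESeq2, no filter on low counts, only the 2 groups compared and leaving out FD replicate 3 each called *Ccl5* higher in MLIV. Every FD library lay below every WT library, with a log2 fold change of -4.23 ± 1.41 with 9 libraries (adjusted p = 0.550) and of -1.61 ± 0.94 with 8 (adjusted p = 0.983).

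*Ccl6* and *Ccl9* are CCR1 ligands of the mouse that lie in the second cluster. *Ccl6* had 113, 95.6 and 115 CPM in MLIV and 144, 135 and 153 CPM in FD, against 76.0, 53.7 and 134 CPM in WT. FD was the highest group, with every library above every MLIV and WT library, the library labelled WT replicate 3 by less than 2 CPM. With 8 libraries *Ccl6* rose in FD against WT by 1.15 ± 0.18 (adjusted p = 0.00890), and with 9 the value was 0.71 ± 0.26 (adjusted p = 0.557). Leaving out a further library was not examined for this call. MLIV against WT gave 0.73 ± 0.18 with 8 libraries (adjusted p = 0.0518) and 0.30 ± 0.26 with 9 (adjusted p = 0.999). With 8 libraries *Ccl6* was called higher in MLIV by DESeq2, no filter on low counts and only the 2 groups compared. A replicate block and leaving out FD replicate 3 also called it. *Ccl9* had 114, 122 and 113 CPM in MLIV and 63.9, 68.0 and 63.2 CPM in FD, against 86.1, 48.7 and 129 CPM in WT. Its FD values lay between those of WT replicates 1 and 2. *Ccl9* was higher in MLIV than in FD with 8 libraries (0.83 ± 0.18, adjusted p = 0.0141), and with 9 this was 0.84 ± 0.26 (adjusted p = 0.109). MLIV against WT gave 0.78 ± 0.21 with 8 libraries (adjusted p = 0.0804) and 0.40 ± 0.26 with 9 (adjusted p = 0.999). With 8 libraries, DESeq2, no filter on low counts, only the 2 groups compared and a replicate block each called *Ccl9* higher in MLIV.

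*Cxcl10*, an interferon-induced ligand of CXCR3 on activated T cells, had 24.5, 37.0 and 24.7 CPM in MLIV and 8.74, 0.985 and 0 CPM in FD, against 2.54, 1.10 and 23.8 CPM in WT. FD counts were 281, 30 and 0, so the FD libraries differed from each other by more than WT replicates 1 and 2 did. All MLIV libraries lay above all others, the library labelled WT replicate 3 by less than 1 CPM. No comparison passed in either edgeR fit. MLIV against WT gave 3.98 ± 1.91 with 8 libraries (adjusted p = 0.574) and 1.64 ± 1.497 with 9 (adjusted p = 0.999), and MLIV against FD gave 3.14 ± 1.59 with 9 (adjusted p = 0.334) and 3.13 ± 1.54 with 8 (adjusted p = 0.386). With 8 libraries, no filter on low counts and only the 2 groups compared each called *Cxcl10* higher in MLIV than in WT.

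*Cxcl16*, the ligand of CXCR6 and also a scavenger receptor for oxidised lipoprotein, was the most abundant of the 10 by CPM in MLIV. It had 190, 202 and 189 CPM in MLIV and 77.4, 71.3 and 76.8 CPM in FD, against 66.4, 69.4 and 185 CPM in WT. Libraries within MLIV and within FD differed by little (coefficients of variation of 3.55% and 4.47%), and the library labelled WT replicate 3 lay at the MLIV level. *Cxcl16* rose in MLIV against WT with 8 libraries by 1.51 ± 0.15 (adjusted p = 1.86e-04), and this call held in all 16 alternatives run on the 8 libraries (adjusted p = 1.08e-26 to 0.00840). With 9 libraries the value was 0.86 ± 0.33 (adjusted p = 0.999). It was higher in MLIV than in FD by 1.36 ± 0.13 with 8 libraries (adjusted p = 2.72e-05) and 1.37 ± 0.34 with 9 (adjusted p = 0.0665). FD against WT gave 0.14 ± 0.14 with 8 libraries (adjusted p = 0.983) and -0.51 ± 0.33 with 9 (adjusted p = 0.735), so its direction turned on the library labelled WT replicate 3.

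**Figure D1:**
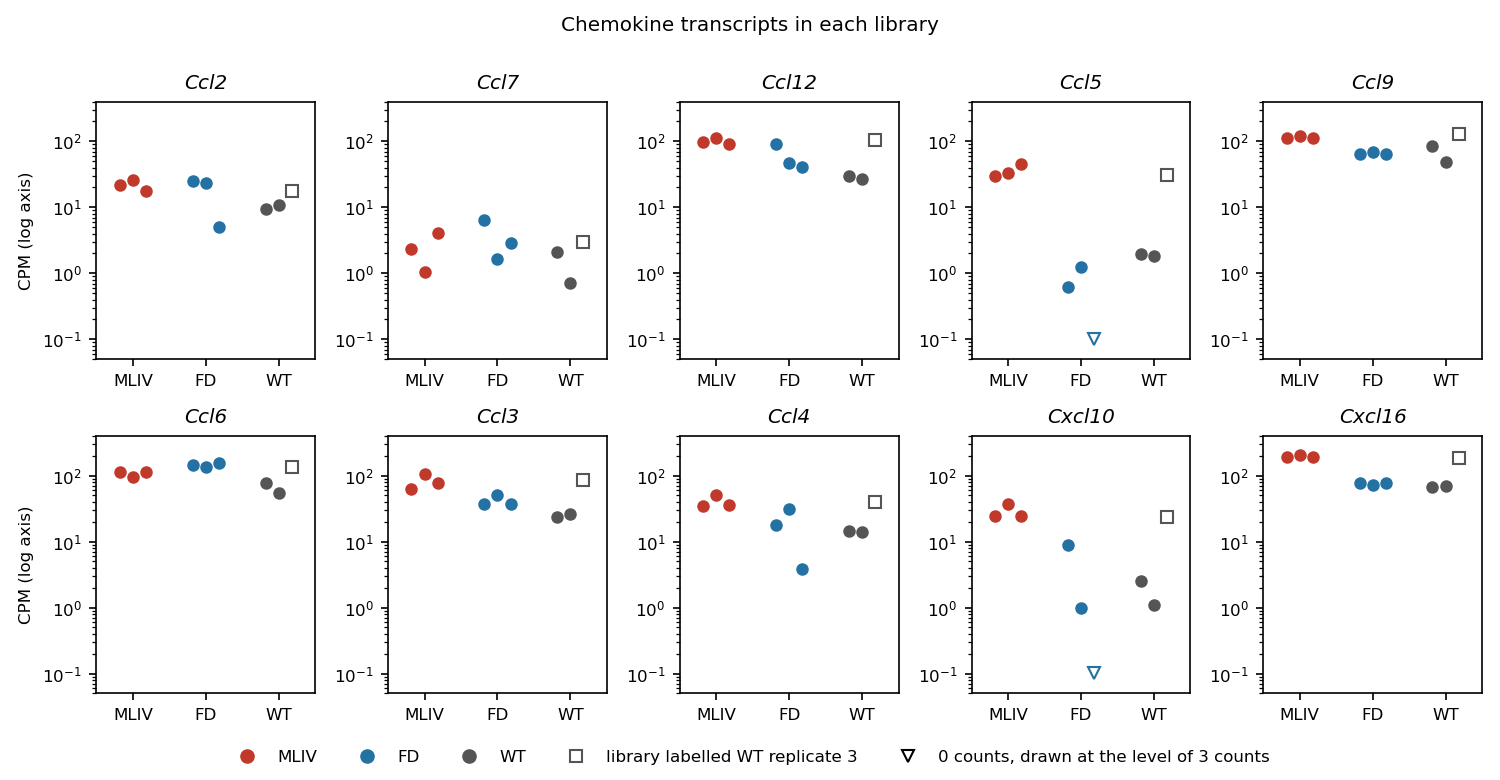
CPM on a log axis of each of the 10 chemokine genes in MLIV, FD and WT, with 1 point per library. The open square is the library labelled WT replicate 3, which lay at 185 CPM for Cxcl16 and 31.4 CPM for Ccl5, at or near the MLIV points, and the open triangle is a library with 0 counts drawn at the level of 3 counts.

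Counted together, none of the 10 genes passed in MLIV against WT with all 9 libraries, where 0% of 15340 genes passed (edgeR quasi-likelihood test, Benjamini-Hochberg adjusted p below 0.05). At an unadjusted p below 0.05, 1 of the 10 was higher (*Cxcl16*), beside 2.78% of all genes higher and 4.64% in either direction. DESeq2 called none of the 9 that it gave an adjusted p (all but *Cxcl10*). All 10 fold changes were positive, with a median of 0.83 against -0.03 over all genes. In 3 of the 10 (*Cxcl16*, *Ccl2* and *Cxcl10*) every MLIV library lay above every WT library, beside 6.56% of all genes.

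With 8 libraries, 3 of the 10 rose in MLIV against WT (*Cxcl16*, *Ccl3* and *Ccl12*), where 1.70% of 17440 genes passed in either direction and 1.55% were higher. Scaling to library totals gave 170 genes higher and 128 lower, against 270 and 26 with TMM scaling, and DESeq2 561 and 141, and the same 3 chemokines passed with library totals. The median over the 10 was 1.499, against -0.13 over all genes. In 9 of the 10 the groups did not overlap, all higher in MLIV, beside 17.3% of all genes, and *Ccl7* was the exception. This fit has only 2 WT libraries. The number of chemokines called depended on FD replicate 3, which takes part in the shared estimate of spread: without it, 7 of the 10 were called, and 1515 of 17458 genes in all, against 296 with it.

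In FD against WT with 9 libraries none of the 10 passed, where 0.339% of all genes did. At an unadjusted p below 0.05, *Ccl6* was higher and *Ccl5* lower, beside 8.01% of all genes. DESeq2 called none of the 9 that it gave an adjusted p (all but *Cxcl10*). *Ccl6* and *Ccl5* were also the genes whose groups did not overlap, beside 6.87% of all genes higher and 5.76% lower. With 8 libraries 1 of the 10 rose (*Ccl6*), where 0.310% of genes passed in either direction and 0.172% were higher. Groups then did not overlap in 4 of the 10 that were higher in FD (*Ccl6*, *Ccl3*, *Ccl12* and *Cxcl16*), beside 9.07% of all genes, and in *Ccl5*, which was lower, beside 9.04%. The median over the 10 was -0.25 with 9 libraries and 0.77 with 8, so the direction of the list turned on the library labelled WT replicate 3. Over all genes it was -0.08 and -0.12.

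MLIV against FD uses no WT library in its means, and WT enters through the shared spread, the gene filter and the scaling. With 9 libraries none of the 10 passed, where 1.26% of all genes did. At an unadjusted p below 0.05, 3 of the 10 were higher (*Cxcl16*, *Ccl5* and *Ccl9*), beside 9.85% of all genes higher and 19.4% in either direction. DESeq2 called these 3 among the 9 that it gave an adjusted p, beside 1523 of 11499 genes (804 of them higher). With 8 libraries 4 of the 10 were higher in MLIV (*Cxcl16*, *Ccl3*, *Ccl9* and *Ccl5*), where 5.63% of genes passed in either direction and 3.50% were higher. With 9 libraries 110 genes were higher and 84 lower, and scaling to library totals gave 219 and 329, with *Cxcl16* called. In 7 of the 10 all MLIV libraries lay above all FD libraries, beside 16.0% of the genes tested with 9 libraries and 14.2% of those tested with 8. In *Ccl6* all lay below, beside 11.8% and 10.5%. The median over the 10 was 0.91 with 9 libraries, against 0.03 over all genes.

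**Figure D2:**
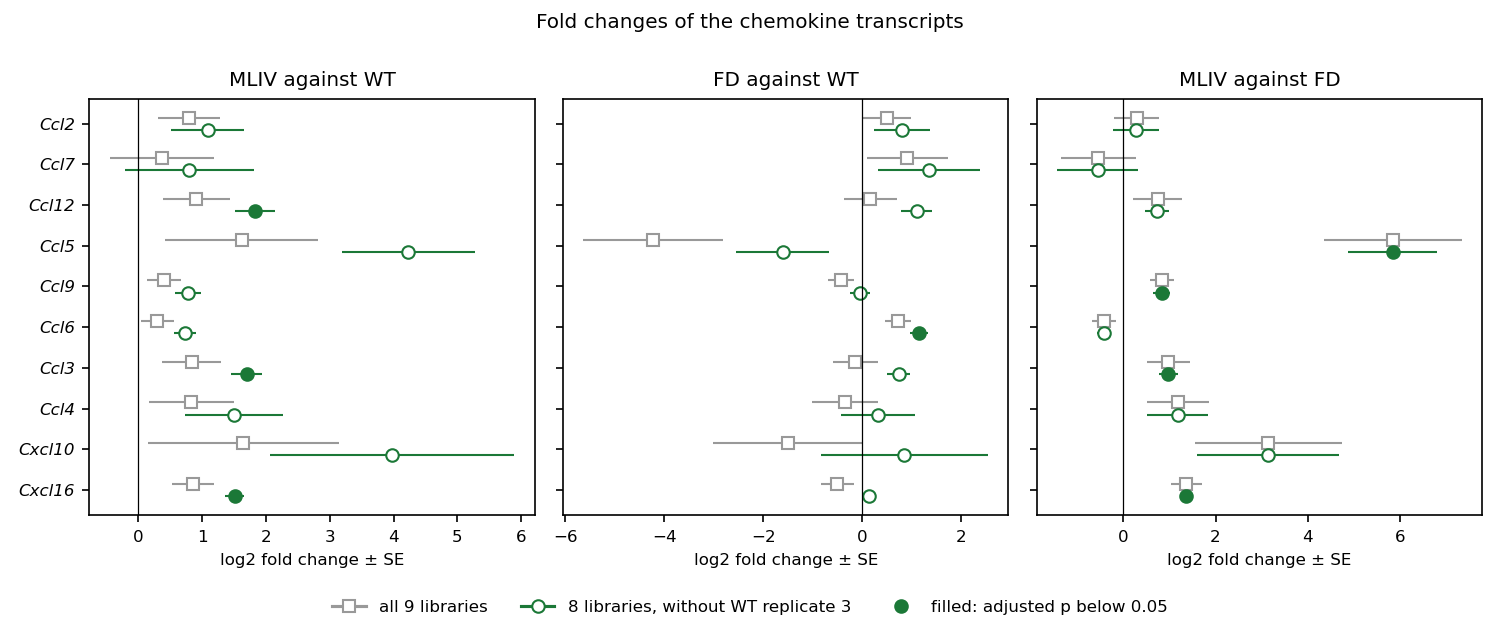
Log2 fold change with its SE for each chemokine gene in the comparisons of each mutant with WT and of MLIV with FD, with all 9 libraries (squares) and with 8, without the library labelled WT replicate 3 (circles, filled at an adjusted p below 0.05). Leaving that library out moved Cxcl16 in MLIV against WT to 1.51 ± 0.15, against 0.86 ± 0.33 with all 9, whereas in MLIV against FD it changed the error and hardly the value.

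Dividing CPM by the summed exon length allows levels of different genes to be compared. On that scale *Ccl12* had the highest level of the 10 in every library except FD replicates 2 and 3, where *Ccl6* did. The 10 genes summed to 614, 739 and 650 CPM per kb in MLIV and 444, 380 and 297 in FD, against 236, 204 and 681 CPM per kb in WT. FD lay between MLIV and WT replicates 1 and 2. As a share of this sum, *Ccl5* took 9.02%, 8.58% and 13.1% in MLIV, 0.264%, 0.618% and 0% in FD and 1.57%, 1.71% and 8.68% in WT. *Ccl6* took 12.9%, 9.01% and 12.3% in MLIV, 22.5%, 24.8% and 35.9% in FD and 22.5%, 18.3% and 13.7% in WT. The make-up therefore differed between MLIV and FD as well as the sum, with more *Ccl5* and less *Ccl6* in MLIV.

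**Figure D3:**
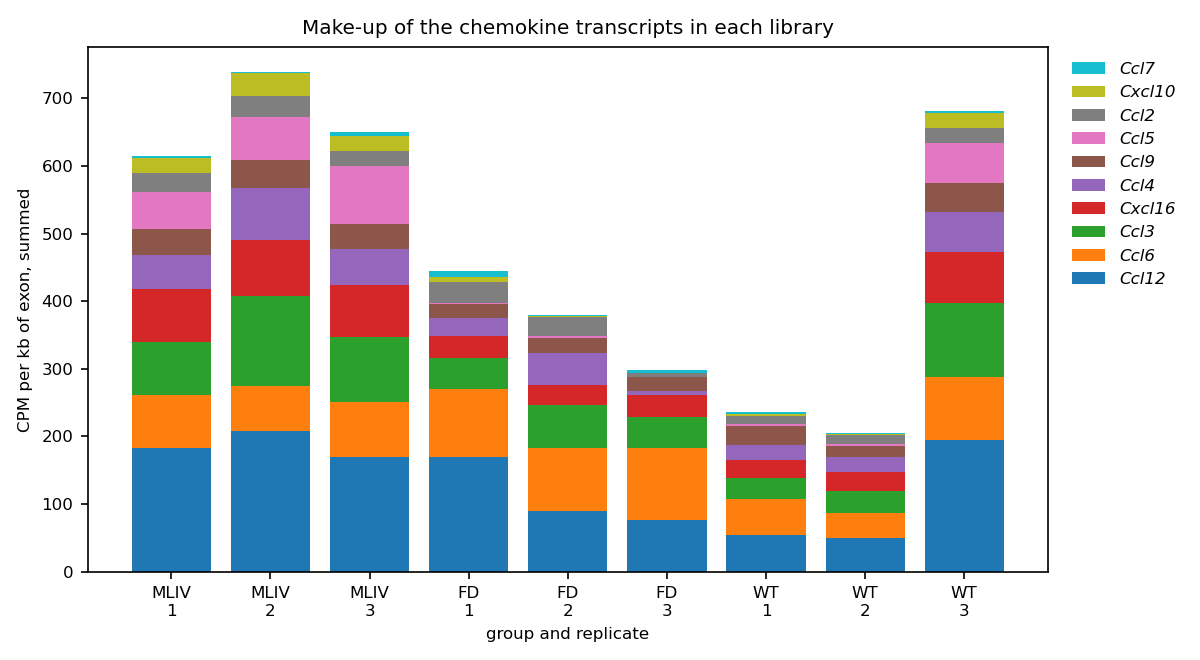
Summed CPM per kb of exon of the 10 chemokine genes in each library, stacked by gene. The MLIV bars reach 614 to 739 and the FD bars 297 to 444, and the library labelled WT replicate 3 (681) stands with MLIV rather than with the other 2 WT libraries (236 and 204).

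Ratios of counts within a library do not depend on scaling to library size. The 10 genes give 45 ratios, of which 10 set all FD libraries apart from the other 6 and 12 set all MLIV libraries apart. How many ratios between other genes do so was not measured, so these counts cannot be read as particular to the chemokines. The ratios were examined with the values known, so they are given as a description with no test. *Ccl6* counts per *Ccl9* count were 0.997, 0.781 and 1.02 in MLIV and 2.25, 1.99 and 2.43 in FD, against 0.883, 1.10 and 1.04 in WT. This ratio was near 1 in every MLIV and WT library, the library labelled WT replicate 3 included, and about 2 in FD. *Ccl6* per *Cxcl16* was 0.596, 0.474 and 0.606 in MLIV, 1.86, 1.90 and 2.00 in FD and 1.15, 0.774 and 0.723 in WT, with no overlap between groups. *Ccl9* per *Cxcl16* was 0.597, 0.607 and 0.595 in MLIV, 0.826, 0.954 and 0.823 in FD and 1.30, 0.702 and 0.698 in WT. Of the 10 ratios that set FD apart, 8 involved *Ccl5*, whose FD counts were at most 38.

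**Figure D4:**
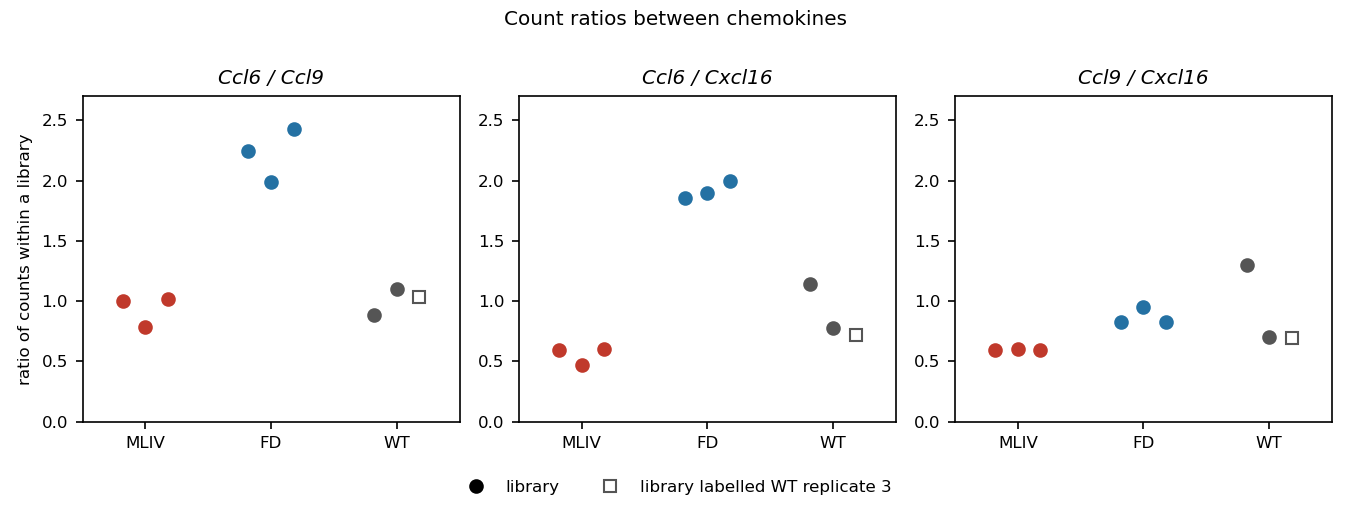
Ratio of counts of Ccl6 to Ccl9, Ccl6 to Cxcl16 and Ccl9 to Cxcl16 within each library, in MLIV, FD and WT, with 1 point per library and the library labelled WT replicate 3 as an open square. The FD points for Ccl6 to Ccl9 lie at 1.99 to 2.43 and all other points at 0.781 to 1.10.

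Likeness of pattern was measured as the root mean square difference of centred log2 CPM over the 9 libraries. The genes closest to *Ccl5* were *Lox* (0.44), which encodes lysyl oxidase, *Cst7* (0.78), which encodes the protease inhibitor cystatin F, and *Gpnmb* (0.83), a lysosomal and membrane glycoprotein. *Ccl5* itself spanned 9.49 on the log2 scale. A prior count of 2 gives counts of 0 a logarithm, and the low end of this span is FD replicate 3, with 0 counts. *Lox* averaged 42.4 CPM in MLIV, 0.870 CPM in FD and 13.2 CPM in WT. The genes closest to *Cxcl10* were the interferon-induced *Rsad2* (0.59) and *Oas3* (0.65), and *Mnda* (0.70). *Cxcl10* spanned 9.21, with its low end also at 0 counts in FD replicate 3. Among the 10 chemokines the closest pairs were *Ccl3* with *Cxcl16* (0.32) and *Ccl9* with *Cxcl16* (0.35), and *Ccl5* with *Ccl7* was the most distant (3.30). The libraries share depth and the 1 library that goes against its label, so these values describe the 9 libraries.

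The library labelled WT replicate 3 also lay with MLIV in interferon target genes, 13 of which summed to 645, 823 and 766 CPM in MLIV, 236, 119 and 122 CPM in FD and 118, 107 and 707 CPM in WT. In MLIV against WT, 0 of 13 passed with 9 libraries (4 higher at an unadjusted p below 0.05, beside 2.78% of all genes, DESeq2 0). With 8 libraries 8 of 13 were higher, where 1.55% of all genes were. *Ifitm3*, which encodes a restriction factor against virus entry, had 58.2, 68.6 and 80.5 CPM in MLIV, 18.3, 11.1 and 18.7 CPM in FD and 10.8, 11.3 and 73.3 CPM in WT. It rose by 2.64 ± 0.27 with 8 libraries (adjusted p = 1.86e-04), and with 9 the value was 1.12 ± 0.70 (adjusted p = 0.999). *Ifit1*, *Ifit3b* and *Ifit2*, whose products bind foreign RNA or act beside those that do, rose by 3.06 ± 0.38, 2.97 ± 0.44 and 3.24 ± 0.39 with 8 libraries. The median over the 13 was 2.91 with 8 libraries and 1.34 with 9. In MLIV against FD 9 of 13 were higher with 8 libraries, where 3.50% of all genes were, and 0 with 9 (12 higher at an unadjusted p below 0.05, beside 9.85% of all genes). DESeq2 called 10 higher with 9 libraries, beside 804 of 11499 genes. In FD against WT 0 of 13 passed in either fit, and DESeq2 called 0 in both. Those at an unadjusted p below 0.05 numbered 0 with 9 libraries, beside 8.01% of all genes, and 1 with 8, beside 732 of 17440. DESeq2 gave 11 of the 13 an adjusted p with 9 libraries.

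Of 14 interferon receptor and signalling genes 0 passed in any comparison with 9 libraries. Those at an unadjusted p below 0.05 numbered 1 in MLIV against WT, beside 4.64% of all genes, and 2 in FD against WT, beside 8.01% (DESeq2 0 in both). Between MLIV and FD there were 5, beside 19.4% (DESeq2 4, and 1523 of the 11499 genes with an adjusted p). *Irf9*, a subunit of the transcription factor complex of type I interferon, was higher in MLIV than in FD with 8 libraries (0.84 ± 0.19, adjusted p = 0.0175), and with 9 this was 0.84 ± 0.24 (adjusted p = 0.0799).

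Of 18 genes of the NF-kappaB and AP-1 pathways none passed in MLIV against WT or in FD against WT in either fit, and DESeq2 called 0. In MLIV against WT, 1 had an unadjusted p below 0.05 with 9 libraries, beside 4.64% of all genes, and 3 with 8, beside 1755 of 17440. In FD against WT, 2 did with 9, beside 8.01%, and 1 with 8, beside 732 of 17440. Every MLIV library lay above every WT library in 6 of the 18 with 9 libraries, beside 6.56% of all genes. With 8 libraries this held in 9 of the 18, beside 17.3%. For FD against WT it held in 3 with 9 libraries, beside 6.87%, and in 6 with 8, beside 9.07%. In 0 of the 18 did all MLIV or all FD libraries lie below all WT libraries, in either fit. *Jun*, an AP-1 subunit, was lower in MLIV than in FD with 8 libraries (-0.62 ± 0.16, adjusted p = 0.0367) and had 1802, 1834 and 1495 CPM in MLIV, 2131, 3248 and 2494 CPM in FD and 1826, 1996 and 1548 CPM in WT. With 9 libraries none of the 18 passed in MLIV against FD (5 at an unadjusted p below 0.05, beside 19.4% of all genes). DESeq2 called 2 of the 18, beside 1523 of 11499 genes. *Fos*, the second most abundant of this list, had 262, 376 and 273 CPM in MLIV, 282, 655 and 285 CPM in FD and 273, 452 and 255 CPM in WT.

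Of 24 chemokine receptor genes 21 were tested, and 0 passed in MLIV against WT in either fit. Those at an unadjusted p below 0.05 numbered 0 with 9 libraries, beside 4.64% of all genes, and 1 with 8, beside 1755 of 17440. DESeq2 called 0 in both, but gave an adjusted p to 23 of the 24 with 9 libraries and to only 6 with 8. *Cx3cr1*, the receptor used in the gate, had 4209, 3728 and 3286 CPM in MLIV, 4606, 4502 and 5919 CPM in FD and 4296, 4966 and 3820 CPM in WT. *Cxcr4*, the CXCL12 receptor, was higher in MLIV than in FD with 8 libraries (3.01 ± 0.71, adjusted p = 0.0218), with 9 at 3.02 ± 0.81 (adjusted p = 0.0746), and had 12.02 CPM in the library labelled WT replicate 3 against 2.08 and 1.63 CPM in the other WT libraries. *Ccr6*, whose ligand CCL20 is not among the 10, was the 1 receptor that rose in FD against WT in both fits (5.12 ± 0.38 with 9 and 4.91 ± 0.42 with 8), and it was lower in MLIV than in FD in both. The receptors of *Cxcl10* and *Cxcl16* were low, with 0 to 1.31 CPM of *Cxcr3* and 5.46 to 25.8 CPM of *Cxcr6* over the 9 libraries.

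Of 30 other chemokine genes, 15 were tested with 9 libraries and 19 with 8, and none passed in any comparison or fit. The most at an unadjusted p below 0.05 was 2, in MLIV against FD with 9 libraries, beside 19.4% of all genes. DESeq2 called 0 throughout, but gave many of the 30 no adjusted p. In MLIV against WT 21 had one with 9 libraries and 2 with 8, and in MLIV against FD 8 and 10. The most abundant of the 30 were *Pf4* and *Cxcl9*. *Cxcl9*, a second CXCR3 ligand, had 16.4, 19.6 and 27.3 CPM in MLIV and 6.47, 0.394 and 0.268 CPM in FD, against 5.40, 0.988 and 23.8 CPM in WT, where the library labelled WT replicate 3 lay within the MLIV range. *Pf4*, also a marker of border macrophages, had 9.48, 12.2 and 19.6 CPM in MLIV, 9.77, 1.64 and 12.4 CPM in FD and 13.9, 1.34 and 21.4 CPM in WT.

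Among 8 genes that process or shed chemokines, 0 passed in MLIV against WT. Those at an unadjusted p below 0.05 numbered 0 with 9 libraries, beside 4.64% of all genes, and 2 with 8, beside 1755 of 17440. DESeq2 called 0 of 8 with 9 libraries and 1 of the 4 that had an adjusted p with 8, beside 702 of 8808 genes. *Adam10* and *Adam17*, the sheddases that act on CXCL16, ranged over 417 to 433 and 307 to 321 CPM in MLIV, 361 to 413 and 256 to 310 CPM in FD and 350 to 452 and 227 to 301 CPM in WT. *Cpd*, a carboxypeptidase, was higher in MLIV than in FD with 8 libraries (1.14 ± 0.16, adjusted p = 4.18e-04), with 9 at 1.14 ± 0.26 (adjusted p = 0.0551), and had 194, 184 and 153 CPM in MLIV, 83.9, 85.6 and 70.5 CPM in FD and 94.1, 122 and 223 CPM in WT. *Mmp8*, a neutrophil collagenase and also 1 of the neutrophil markers below, was higher in MLIV than in FD in both fits, from 58 to 162 counts in MLIV and 0 to 2 counts in FD.

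Markers of other cells that a CX3CR1+ CD45+ CD11b+ gate or its doublets could hold were summed in each library. The 13 T and NK cell markers summed to 7.21, 11.5 and 16.4 CPM in MLIV, 8.34, 6.31 and 5.43 CPM in FD and 19.04, 5.75 and 13.2 CPM in WT. T and NK cells also express *Ccl5*. Single markers of this list differed in where they were highest. *Cd3d* (3.09 CPM) and *Cd8a* (3.06 CPM) were highest in MLIV replicate 3 and *Cd3e* (3.04 CPM) in WT replicate 1. *Cd4* (9.41 CPM) was highest in the library labelled WT replicate 3. The 9 neutrophil markers other than *Csf3r*, which microglia also express, summed to 168, 155 and 286 CPM in MLIV, 5.29, 5.22 and 1.41 CPM in FD and 26.6, 58.1 and 55.9 CPM in WT. *Csf3r* was left out after its values were seen. The library labelled WT replicate 3 (55.9 CPM) lay beside WT replicate 2 (58.1 CPM) in these, unlike in the chemokines. With 9 libraries 6 of the 10 neutrophil markers were higher in MLIV than in FD, where 110 of 15340 genes were. In MLIV against WT 0 of the 10 passed, 5 were higher at an unadjusted p below 0.05, beside 2.78% of all genes, and DESeq2 called *S100a9* higher, beside 8 of 19093 genes. For 7 of the 10 every MLIV library lay above every WT library, beside 6.56% of all genes. In FD against WT 1 of the 10 was lower, where 26 of 15340 genes were. At an unadjusted p below 0.05 8 were lower, beside 479 of 15340 genes, and DESeq2 called 6 of the 10 lower, beside 97 of 14378 genes. The 8 monocyte markers summed to 78.4, 83.8 and 113 CPM in MLIV, 85.4, 32.9 and 71.4 CPM in FD and 101, 33.4 and 109 CPM in WT. In MLIV against WT 0 of the 8 passed with 9 libraries. In 4 (*Ly6c2*, *Plac8*, *Chil3* and *Ms4a4c*) every MLIV library lay above every WT library, beside 6.56% of all genes. In MLIV against FD 1 of the 8 was higher, where 110 of 15340 genes were. DESeq2 called *Ms4a4c* and *Chil3* higher there, beside 804 of 11499 genes. *F13a1* is on both the monocyte and the border macrophage list. The 8 border macrophage markers summed to 593 to 610 CPM in MLIV, 697 to 877 CPM in FD and 615 to 1091 CPM in WT. Without *Stab1*, left out after its values were seen, these were 199, 223 and 273 CPM in MLIV, 264, 56.8 and 216 CPM in FD and 275, 58.7 and 524 CPM in WT. The 14 dissociation-induced genes summed to 4071 to 5027 CPM in MLIV, 4132 to 7104 CPM in FD and 3592 to 5069 CPM in WT. The part of these cells and of dissociation in the chemokine values was not tested.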

How the data were processed

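RNA from sorted microglia was sequenced in 9 libraries, 3 each labelled MLIV, FD and WT. Per the labels and the file header, the authors prepared libraries with a stranded kit for small amounts of total RNA, aligned reads with STAR 2.5.1 to mm10 and made counts per gene using featureCounts (1.4.6-p3). A command line in the header names 21 libraries, and the columns used here are the 9 of this study. The command has no strand or read pair option, so mates were counted singly and on either strand. The deposited counts are whole numbers and not normalized. The authors' tables of their own comparisons (means, fold changes, test statistics and p-values) were not used.

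The 10 chemokines, the gene lists and the fit with 8 libraries were chosen with earlier results of these data known. Genes were kept by filterByExpr (15340 with 9 libraries, 17440 with 8, all 10 chemokines in both), scaled by TMM and tested in edgeR (robust quasi-likelihood, a mean for each group). Leaving WT replicate 3 out gives WT 2 libraries and assumes that they vary like the other groups. A gene passed where its Benjamini-Hochberg p lay below 0.05, whatever its fold. SE was taken as the absolute log2 fold change over the root of F. CPM uses TMM-scaled library sizes, and CPM per kb the exon length in the file. Limits at a count of 0 are 3 counts and cover counting error only. They treat each count as independent, and as mates were counted singly they may be too low. All 10 chemokines are described with every library. Of the other lists, called genes (up to 4 per list and comparison, by smallest p) or otherwise the 2 most abundant are named, and the 3 genes most like *Ccl5* and *Cxcl10*. *Cxcr3* and *Cxcr6* were named for what they bind. Some genes that this rule names are not reported here. Alternatives were DESeq2, RLE factors, library totals, other filters on low counts, only the 2 groups compared, a replicate block, removal of 86 ribosomal genes and leaving out each library. From the 8 libraries, alternatives other than DESeq2 were examined for MLIV against WT only. No pair of libraries was a duplicate (36 pairs, at least 26.7 chi-square per gene). The scripts were tested on simulated data. R 4.3.3, edgeR 4.0.16 and DESeq2 1.42.0 were used.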

Additional observations from a re-analysis of the deposited data

Results flagged for a closer look

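MLIV and FD share the WT group, so the difference of their changes from WT is the direct comparison of MLIV with FD. Without the library labelled WT replicate 3, *Cxcl16* (log2 fold change 1.36), *Ccl5* (5.83), *Ccl9* (0.83) and *Ccl3* (0.97) differed between MLIV and FD by this test (edgeR adjusted p = 2.72e-05, 0.0165, 0.0141 and 0.0122), with all 3 MLIV libraries above all 3 FD libraries in each. Leaving out a further library was not examined for these 4 calls. With all 9 libraries none of the 4 passed (adjusted p = 0.0665, 0.0868, 0.109 and 0.288) although no MLIV or FD library was added or removed, and the values moved by no more than 0.01, since that library enters this comparison through the shared spread, the gene filter and the scaling.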

How the results depend on the processing

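Leaving out 1 library at a time gave 0 to 296 genes and 0 to 3 chemokines called in MLIV against WT, 37 to 77 genes and 0 to 1 chemokine in FD against WT, and 52 to 982 genes and 0 to 4 chemokines in MLIV against FD, each chemokine maximum being without WT replicate 3. From the 8 libraries it gave 81 genes (without WT replicate 1) to 1515 genes (without FD replicate 3) and 2 to 7 chemokines in MLIV against WT. DESeq2 called 13 genes in MLIV against WT, 173 in FD against WT, 1523 with 3 chemokines (*Ccl5*, *Ccl9* and *Cxcl16*) in MLIV against FD, and 702 with 6 chemokines in MLIV against WT with 8 libraries, against 0, 52, 194 and 296 genes by edgeR. In MLIV against FD, library totals gave 548 genes (219 higher and 329 lower, against 110 and 84) and 1 chemokine, no filter 637 genes, at least 10 counts in every library 600 genes and 1 chemokine, and only the 2 groups compared 699 genes and 4 chemokines. In FD against WT no filter gave 94 genes and only the 2 groups compared 33. In MLIV against WT with 8 libraries no filter gave 683 genes and 8 chemokines, and only the 2 groups compared 1164 and 9. A minimum of 10 counts in every library removed *Ccl5* and *Cxcl10*.

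Replicate numbers did not pair the libraries: same-numbered libraries deviated together with r = -0.30 to 0.19, and 2 of 18 correlated best with their own number. A replicate block gave 87 genes in MLIV against FD, and 471 genes and 5 chemokines in MLIV against WT with 8 libraries. Single chemokines kept their direction and side of the threshold in 599 cases, gained a call in 40, lost one in 5 and turned direction in 13, none of them called. The last were, in FD against WT, *Ccl3* (0.027 with the replicate block, -0.45 to 0.73 leaving out 1 library, the highest without WT replicate 3), *Ccl12* (-0.13, -0.16 and -0.27 without WT replicate 1, WT replicate 2 and FD replicate 1, range -0.27 to 1.09), *Ccl4* (0.31 without WT replicate 3 and 0.11 without FD replicate 3, range -1.07 to 0.31), *Cxcl10* (range -4.21 to 0.85) and *Cxcl16* (range -0.76 to 0.14), both highest without WT replicate 3. In MLIV against WT *Ccl7* ranged over -0.19 to 0.80 (-0.02 without WT replicate 2), and in MLIV against FD *Ccl7* over -1.11 to 0.14 and *Ccl2* over -0.15 to 0.63. Library totals moved the median of all genes in MLIV against WT to -0.18 with 9 libraries and -0.33 with 8, against -0.03 and -0.13 by TMM, and that of the chemokines to 0.74 and 1.30, against 0.83 and 1.499. Apart from fewer libraries or genes, the causes were not tested. Counts were lowest for *Ccl5*, *Cxcl10* and *Ccl7* (0, 0 and 25). Both zeros were in FD replicate 3, with 31079308 counts in all but 12032 genes counted.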
